A study of Mus musculus with 12 samples.

Results

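The 10 circadian clock genes Arntl, Clock, Per1, Per2, Per3, Cry1, Cry2, Nr1d1, Nr1d2 and Dbp were followed in cultured mammary epithelial cells from C57BL/6 mice. A gene was taken as the row of the authors' annotation table whose list of symbols holds its name, without regard to its values, and each of the 10 symbols had 1 row among 28427. All 10 passed the filter on low counts that left 13951 genes for testing. RNA was sequenced from spheroids grown inside Matrigel for 96 h, monolayers grown on collagen-coated dishes for 96 h, spheroids grown for 48 h and monolayers grown for 48 h. These 4 groups hold 3 libraries each. Every culture received progesterone and prolactin. Culture format and matrix (a gel of basement membrane proteins, or collagen) changed together, so their parts in a difference cannot be told apart. The series calls the 3 libraries of a group biological replicates, but the sources used here do not give whether separate animals lie behind them, so p-values measure the spread between these libraries. The medium of the gels was changed after 48 h, per the labels. Whether the medium of monolayers was changed is not given. The sources used here do not give the time of day at harvest, and each group is a single sampling time, so a changed level and a shifted phase of a daily rhythm cannot be told apart.

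The clock is a feedback loop of transcription that runs in most mammalian cells, mammary epithelium included. ARNTL (also called BMAL1) and CLOCK bind E-boxes as a pair and activate Nr1d1, Nr1d2, Dbp and the Period and Cryptochrome genes, whose proteins then repress that pair. The nuclear receptors NR1D1 and NR1D2 (REV-ERB alpha and beta) repress Arntl through elements that ROR receptors also use, and DBP activates genes that carry D-boxes, among them Period genes.

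Library totals ran between 7674105 and 13554497 counts. The largest component of variation, 59.6% of the variance of log2 levels, separated spheroids from monolayers. Within monolayers at 48 h, replicate 3 stood apart, with a chi-square per degree of freedom of 17.2 against replicate 1, the highest of the 12 replicate pairs, which started from 2.41. That library held the lowest level of Clock, Per1, Per2, Nr1d1 and Dbp of all 12. Changes of Clock and Per2 with time in monolayers are given without it too. Their differences between formats at 48 h are given with a range over single libraries left out. Epithelial markers (Epcam, Cdh1 and 4 keratins) summed to 5973 to 6245 CPM in spheroids and 4071 to 4347 CPM in monolayers at 96 h, and to 5738 to 6124 CPM in spheroids and 9359 to 10736 CPM in monolayers at 48 h. CPM are counts scaled to library size, with library sizes adjusted by TMM, which allows for genes that take up a larger share of some libraries. The markers did not move together. Krt5 and Krt14, keratins of basal cells, averaged 131 and 907 CPM in spheroids and 10.0 and 73.6 CPM in monolayers at 96 h, the group where Nr1d1, Nr1d2 and Dbp were highest, and their part in those results was not tested. Krt8 and Krt18, luminal keratins, averaged 1919 and 1117 CPM in spheroids and 1432 and 1028 CPM in monolayers at 96 h. At 48 h Krt5 and Krt14 averaged 216 and 1032 CPM in spheroids and 76.5 and 494 CPM in monolayers, while Krt8 and Krt18 averaged 2145 and 937 CPM in spheroids and 4245 and 2715 CPM in monolayers. All 6 epithelial markers were present in every group, as the cell type label says. All 8 fibroblast markers were present too, and summed to 681 to 737 CPM in spheroids and 1767 to 2424 CPM in monolayers at 96 h, and to 1992 to 2254 CPM in spheroids and 7784 to 8556 CPM in monolayers at 48 h.

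Promoter windows of 300 bases, from 250 before to 50 after a gene's start, were read from RefSeq sequences for GRCm38.p6, another build than the mm9 of the counts. They were searched on both strands for 5 elements that clock proteins or their inputs bind: the E-box CACGTG, the E-prime box CACGTT, the D-box TTANGTAA, the ROR element core TAGGTCA and the cAMP element TGACGTCA. Windows were found for 9 of the 10 genes, 13 windows in all, and Per2 had none. No matches overlapped. The 5 windows below each held a match, so they do not stand for the clock genes as a set. Of their genes, Per1 and Cry1 were higher in spheroids at each time, and Per3 and Nr1d1 were highest in monolayers at 96 h. Arntl is the gene that the REV-ERB receptors act on. Nr1d2, Dbp and Cry2 were also highest in monolayers at 96 h, and their windows are not printed. Each printed window runs 5′ to 3′ along the gene's own strand, and capitals mark the matches.
Per1, chr11:69098699-69098998, plus strand: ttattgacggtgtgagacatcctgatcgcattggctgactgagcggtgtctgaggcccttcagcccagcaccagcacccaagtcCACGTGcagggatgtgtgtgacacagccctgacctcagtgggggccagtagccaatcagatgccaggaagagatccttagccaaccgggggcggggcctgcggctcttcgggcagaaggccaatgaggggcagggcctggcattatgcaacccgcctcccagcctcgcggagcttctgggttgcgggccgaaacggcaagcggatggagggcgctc
Cry1, chr10:85185005-85185304, minus strand: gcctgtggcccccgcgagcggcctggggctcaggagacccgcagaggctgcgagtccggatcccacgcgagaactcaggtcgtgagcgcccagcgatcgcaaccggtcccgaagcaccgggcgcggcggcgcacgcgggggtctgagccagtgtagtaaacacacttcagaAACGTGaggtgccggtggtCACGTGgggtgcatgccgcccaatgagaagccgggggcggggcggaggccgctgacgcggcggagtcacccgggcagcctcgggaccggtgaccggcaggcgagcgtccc
Per3, chr4:151044616-151044915, minus strand: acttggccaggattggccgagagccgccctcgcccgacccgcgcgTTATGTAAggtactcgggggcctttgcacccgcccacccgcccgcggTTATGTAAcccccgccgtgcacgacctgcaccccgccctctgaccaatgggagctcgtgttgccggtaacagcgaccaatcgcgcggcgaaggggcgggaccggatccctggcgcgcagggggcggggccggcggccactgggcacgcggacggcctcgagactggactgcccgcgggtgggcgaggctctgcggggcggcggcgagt
Nr1d1, chr11:98775328-98775627, minus strand: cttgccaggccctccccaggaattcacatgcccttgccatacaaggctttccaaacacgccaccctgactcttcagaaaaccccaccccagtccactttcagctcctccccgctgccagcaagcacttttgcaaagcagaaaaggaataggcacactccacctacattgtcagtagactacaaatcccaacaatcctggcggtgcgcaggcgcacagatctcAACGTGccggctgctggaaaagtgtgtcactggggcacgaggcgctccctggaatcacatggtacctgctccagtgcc
Arntl, chr7:113207261-113207560, plus strand: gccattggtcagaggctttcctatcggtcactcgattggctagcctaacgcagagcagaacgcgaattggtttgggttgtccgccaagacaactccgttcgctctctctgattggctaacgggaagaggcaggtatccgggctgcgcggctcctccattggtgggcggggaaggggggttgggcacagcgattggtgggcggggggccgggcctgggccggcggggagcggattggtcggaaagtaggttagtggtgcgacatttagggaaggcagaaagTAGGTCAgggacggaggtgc
The Per1 window held 1 E-box, which began 166 bases before the start. In Cry1 an E-box began 60 bases and an E-prime box 79 bases before it. Per3 held 2 D-boxes, 205 and 158 bases before the start. Nr1d1 held an E-prime box 28 bases before the start, Cry2 held another 166 bases before it, and Arntl held a ROR element core that began at base 31 of the transcript. A second window of Per1 and of Arntl held no match. The windows of Clock, Nr1d2 and Dbp held none of these letters, which says nothing of elements elsewhere in those genes. Of 32851 mouse promoter windows of this length, 7.15% held the E-box, 4.68% the E-prime box, 2.32% the D-box, 2.61% the ROR core and 1.79% the cAMP element. A match is a string of letters and not a measured binding site.

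The period and cryptochrome genes Per1, Per2 and Cry1 were higher in spheroids than in monolayers at both times, by 1.69-fold to 3.97-fold. Nr1d1, Nr1d2, Per3, Cry2 and Dbp were highest in monolayers at 96 h, where Nr1d1, Nr1d2 and Dbp stood 4.79, 4.18 and 5.12 times as high as in spheroids of that age. Arntl and Clock varied least, and their group means spanned 1.14-fold and 1.43-fold. At 96 h, 3 of the 10 genes were higher and 5 lower in spheroids (edgeR's quasi-likelihood test, Benjamini-Hochberg adjusted over all genes, threshold 0.05), beside 37.3% and 36.5% of all genes tested, or 73.8% in either direction. At 48 h, 5 were higher and 2 lower, beside 31.6% and 26.4% of all genes, or 57.9%. Between 48 h and 96 h, 1 gene rose and 3 fell in spheroids, beside 19.3% and 20.5% of all genes, or 39.8%. In monolayers 6 rose and 1 fell, beside 30.1% and 31.3%, or 61.3%. With so many genes past the threshold, the shares of clock genes called in either direction lay near those of all genes in these 4 comparisons, and what the genes show is which of them moved and how far. Their median log2 fold change, spheroids over monolayers, was -0.37 at 96 h and 0.53 at 48 h, beside medians of -0.0015 and 0.05 over all genes. The median change with time was -0.08 in spheroids and 0.44 in monolayers, beside 0.01 over all genes in each format.

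**Figure D1:**
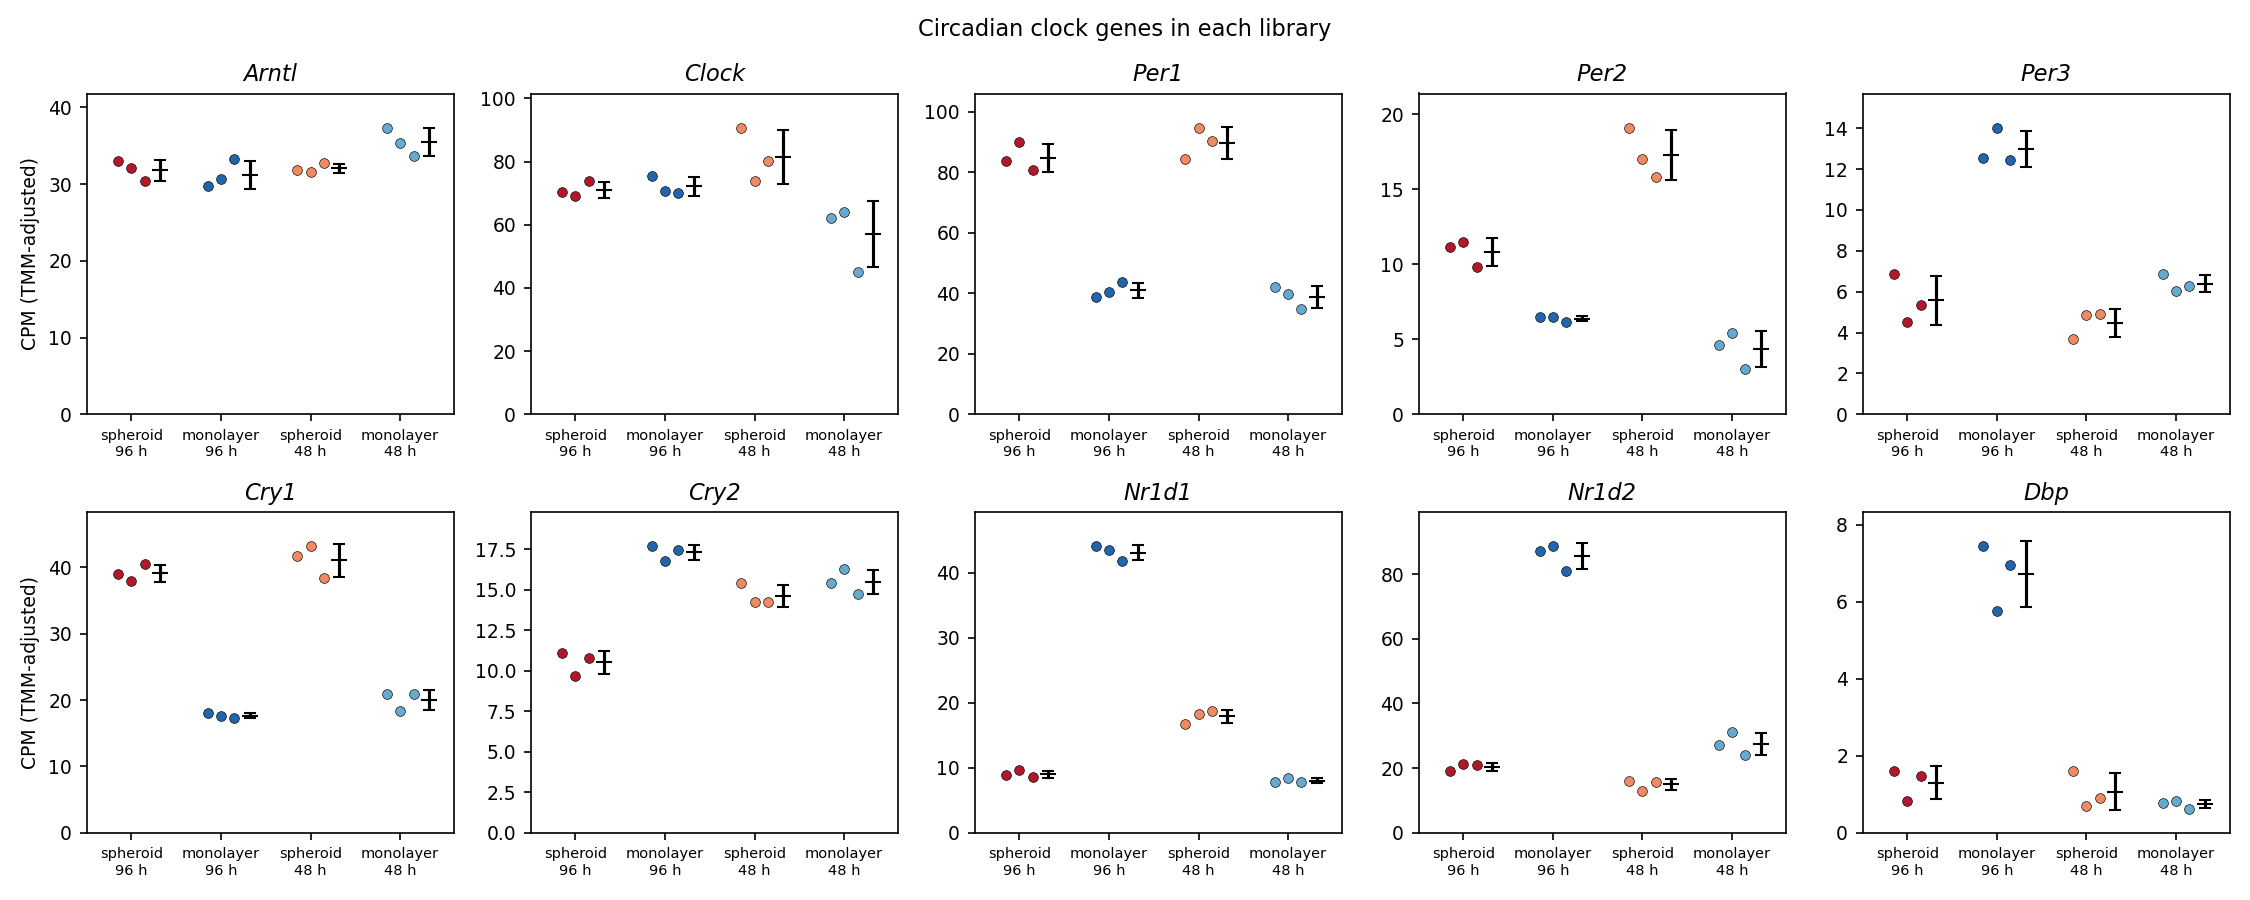
Level of each clock gene in CPM (vertical axis, from 0) in the 12 libraries, by culture format and time. Points are libraries and bars show the mean and SD of 3. Per1 and Cry1 lie higher in both spheroid groups, with no overlap with monolayers of the same age, while Nr1d1, Nr1d2, Per3 and Dbp lie highest in monolayers at 96 h.

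Arntl encodes the constant partner of the activating pair. It was measured at 33.0, 32.1 and 30.3 CPM in spheroids and 29.7, 30.7 and 33.2 CPM in monolayers at 96 h, and at 31.9, 31.6 and 32.7 CPM in spheroids and 37.3, 35.4 and 33.7 CPM in monolayers at 48 h. The 3 monolayers at 48 h were the highest libraries, and the other groups overlapped. Spheroids and monolayers did not differ past the threshold at 96 h (log2 fold change 0.03, 95% interval -0.13 to 0.18, adjusted p = 0.756) or at 48 h (-0.15, interval -0.30 to 0.01, adjusted p = 0.109), although the 48 h value passed with RLE scaling (-0.19, adjusted p = 0.045). In monolayers it fell by 0.18 on the log2 scale between 48 h and 96 h (SE 0.0749, adjusted p = 0.0416). This call was lost in 11 of 22 alternative settings and turned to 0.02 on the deposited FPKM values. The 22 include summing the rows of a symbol, which could not change the fit. In spheroids its change with time was -0.01 (adjusted p = 0.922). Arntl shares 33 exonic bases with a gene on the opposite strand in the GENCODE annotation, and since the sources used here give no strand setting for the counting, such reads cannot be told apart.

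Clock encodes the other partner of the pair, a protein with acetyltransferase activity. Its levels were 70.4, 69.0 and 73.9 CPM in spheroids and 75.5, 70.7 and 70.1 CPM in monolayers at 96 h, and 90.7, 73.7 and 80.1 CPM in spheroids and 62.2, 64.0 and 45.0 CPM in monolayers at 48 h. The formats overlapped at 96 h, and at 48 h every spheroid library lay above every monolayer. Clock was higher in spheroids at 48 h by 0.52 on the log2 scale (SE 0.104, adjusted p = 0.000341), while the value at 96 h was -0.02 (interval -0.24 to 0.19, adjusted p = 0.854). It rose by 0.34 in monolayers with time (SE 0.104, adjusted p = 0.00924), or by 0.19 without the third monolayer library at 48 h, 0.51 with total count scaling and 0.55 on log2 FPKM values. In spheroids the change with time was -0.20 (interval -0.41 to 0.02, adjusted p = 0.132), and it passed the threshold without that same library (adjusted p = 0.0222) and with only spheroids in the fit (adjusted p = 0.015). With single libraries left out, the difference between formats at 48 h ranged from 0.37 to 0.61.

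Per1, a repressor of the pair that responds quickly to signals from outside the cell, was at 83.7, 89.9 and 80.9 CPM in spheroids and 38.9, 40.3 and 43.8 CPM in monolayers at 96 h. At 48 h it was at 84.3, 94.7 and 90.2 CPM in spheroids and 42.0, 39.6 and 34.9 CPM in monolayers. All 6 spheroid libraries lay above all 6 monolayers. Per1 was 2.07-fold higher in spheroids at 96 h (log2 fold change 1.05, SE 0.0781, adjusted p = 7.94e-10) and 2.31-fold higher at 48 h (1.21, SE 0.0791, adjusted p = 2.20e-10). With time it changed by -0.08 in spheroids (adjusted p = 0.414) and by 0.08 in monolayers (adjusted p = 0.422), neither past the threshold. The monolayer value passed on log2 FPKM values (0.23, adjusted p = 0.03) and with total count scaling (0.25, adjusted p = 0.0169), a scaling that moved the median of all genes there to 0.18.

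Per2, the partner of Per1 and the member of the family most needed for rhythm in mice, was less abundant. It was at 11.2, 11.5 and 9.79 CPM in spheroids and 6.48, 6.51 and 6.17 CPM in monolayers at 96 h, and at 19.1, 17 and 15.8 CPM in spheroids and 4.60, 5.39 and 3.04 CPM in monolayers at 48 h. No 2 of the 4 groups overlapped, with spheroids at 48 h highest and monolayers at 48 h lowest. Per2 was 1.69-fold higher in spheroids at 96 h (log2 fold change 0.76, SE 0.154, adjusted p = 0.000221) and 3.97-fold higher at 48 h (1.99, SE 0.158, adjusted p = 3.51e-09). It fell by 0.68 with time in spheroids (SE 0.136, adjusted p = 0.0006) and rose by 0.55 in monolayers (SE 0.179, adjusted p = 0.013). Without the third monolayer library at 48 h the rise was 0.34 and did not pass (adjusted p = 0.0833). With single libraries left out, the difference between formats at 48 h ranged from 1.78 to 2.19. On the log2 FPKM values the differences between formats were 0.40 at 96 h and 1.24 at 48 h, and the rise in monolayers was 0.35, since a pseudocount of 1 shrinks the change of a low gene.

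Per3, the least essential of the Period genes for rhythm in mice, went the other way between formats. Its levels were 6.88, 4.52 and 5.34 CPM in spheroids and 12.6, 14.0 and 12.4 CPM in monolayers at 96 h, and 3.69, 4.86 and 4.89 CPM in spheroids and 6.86, 6.05 and 6.26 CPM in monolayers at 48 h. The 3 monolayers at 96 h stood above all other libraries, and spheroids lay below monolayers at each time. Per3 was 2.31-fold lower in spheroids at 96 h (log2 fold change -1.21, SE 0.151, adjusted p = 9.18e-07). At 48 h it was lower too (-0.52, SE 0.179, adjusted p = 0.0185), a call lost without spheroid replicate 1 (-0.39, adjusted p = 0.103) or monolayer replicate 1 (-0.47, adjusted p = 0.0511), with total count scaling (-0.41, adjusted p = 0.0569) and on log2 FPKM values (-0.18, adjusted p = 0.277). In monolayers Per3 rose by 1.02 with time (SE 0.152, adjusted p = 1.46e-05), and in spheroids it changed by 0.33 (interval -0.05 to 0.70, adjusted p = 0.154).

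Cry1, the stronger repressor of the cryptochrome pair, was at 39.0, 37.9 and 40.5 CPM in spheroids and 18.1, 17.6 and 17.3 CPM in monolayers at 96 h. At 48 h it was at 41.7, 43.2 and 38.4 CPM in spheroids and 21.0, 18.3 and 20.9 CPM in monolayers. As with Per1, all 6 spheroid libraries lay above all 6 monolayers. Cry1 was 2.21-fold higher in spheroids at 96 h (log2 fold change 1.15, SE 0.0818, adjusted p = 4.24e-10) and 2.05-fold higher at 48 h (1.04, SE 0.0814, adjusted p = 3.01e-09). The change with time was -0.07 in spheroids (adjusted p = 0.492) and -0.18 in monolayers (adjusted p = 0.084), where it passed without monolayer replicate 2 at 48 h (-0.24, adjusted p = 0.0371).

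Cry2, the other cryptochrome, was at 11.1, 9.70 and 10.8 CPM in spheroids and 17.7, 16.8 and 17.4 CPM in monolayers at 96 h, and at 15.4, 14.2 and 14.2 CPM in spheroids and 15.4, 16.2 and 14.8 CPM in monolayers at 48 h. The 3 spheroids at 96 h were the lowest libraries, and the formats overlapped at 48 h. Cry2 was 1.65-fold lower in spheroids at 96 h (log2 fold change -0.72, SE 0.0965, adjusted p = 2.26e-06), and at 48 h its difference was -0.08 (interval -0.28 to 0.13, adjusted p = 0.51), a sign that turned with total count scaling and on log2 FPKM values. It fell by 0.48 in spheroids with time (SE 0.0999, adjusted p = 0.000905) and changed by 0.16 in monolayers (adjusted p = 0.138), a value that passed with total count scaling (0.34, adjusted p = 0.00524) and on log2 FPKM values (0.27, adjusted p = 0.0104). Cry2 shares 295 exonic bases with a noncoding gene on the opposite strand, whose reads cannot be told apart from its own.

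Nr1d1, which encodes REV-ERB alpha, a heme-binding repressor, showed opposite differences at the 2 times. At 96 h it was at 8.86, 9.62 and 8.53 CPM in spheroids and 44.1, 43.4 and 41.8 CPM in monolayers. At 48 h it was at 16.7, 18.3 and 18.7 CPM in spheroids and 7.84, 8.45 and 7.78 CPM in monolayers. No 2 groups overlapped, and the order was monolayers at 96 h, spheroids at 48 h, spheroids at 96 h and monolayers at 48 h. Nr1d1 was 4.79-fold lower in spheroids at 96 h (log2 fold change -2.26, SE 0.0880, adjusted p = 6.78e-14) and 2.22-fold higher in spheroids at 48 h (1.15, SE 0.100, adjusted p = 1.29e-08). With time it fell by 0.99 in spheroids (SE 0.0966, adjusted p = 1.56e-07) and rose by 2.42, or 5.36-fold, in monolayers (SE 0.0915, adjusted p = 2.68e-13). It shares 263 exonic bases with Thra, a thyroid hormone receptor gene on the opposite strand. Thra was at 22.7, 24.4 and 18.5 CPM in spheroids and 17.3, 12.4 and 13.6 CPM in monolayers at 96 h, and at 27.0, 26.7 and 27.9 CPM in spheroids and 13.8, 13.0 and 12.8 CPM in monolayers at 48 h. Thra was thus higher in spheroids at each time (log2 fold changes 0.58 at 96 h and 1.05 at 48 h, adjusted p = 0.000298 and 6.79e-07), and reads of the shared bases cannot be told apart.

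Nr1d2, which encodes REV-ERB beta, was at 19.0, 21.3 and 21.1 CPM in spheroids and 87.2, 88.6 and 81.0 CPM in monolayers at 96 h. At 48 h it was at 16.2, 13.0 and 15.7 CPM in spheroids and 27.1, 31.2 and 24.1 CPM in monolayers. The groups did not overlap, and spheroids lay below monolayers at both times. Nr1d2 was 4.18-fold lower in spheroids at 96 h (log2 fold change -2.06, SE 0.0918, adjusted p = 4.61e-13) and 1.83-fold lower at 48 h (-0.88, SE 0.108, adjusted p = 1.34e-06). It rose with time in each format, by 0.45 in spheroids (SE 0.110, adjusted p = 0.00331) and by 1.64 in monolayers (SE 0.0901, adjusted p = 3.74e-11).

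Dbp, a direct output of the activating pair, was scarce. It had 21, 10 and 20 counts in spheroids and 93, 46 and 79 counts in monolayers at 96 h, and 17, 6 and 8 counts in spheroids and 8, 10 and 7 counts in monolayers at 48 h. These came to 1.60, 0.822 and 1.48 CPM in spheroids and 7.44, 5.76 and 6.96 CPM in monolayers at 96 h, and to 1.61, 0.694 and 0.890 CPM in spheroids and 0.784, 0.829 and 0.626 CPM in monolayers at 48 h. Monolayers at 96 h stood above all other libraries, which overlapped among themselves. Dbp was 5.12-fold lower in spheroids at 96 h (log2 fold change -2.36, SE 0.260, adjusted p = 1.84e-07, or -1.57 on the log2 FPKM scale), and the difference at 48 h was 0.54 (interval -0.29 to 1.38, adjusted p = 0.256), or 0.0867 without spheroid replicate 1. It rose by 3.16, or 8.94-fold, in monolayers with time (SE 0.295, adjusted p = 4.73e-08), or by 1.88 on the log2 FPKM scale, and changed by 0.26 in spheroids (interval -0.47 to 1.00, adjusted p = 0.582). Dbp shares 539 exonic bases with Sphk2, a sphingosine kinase gene on the opposite strand, which lay between 26.5 and 35.9 CPM in all 12 libraries and passed the threshold in no comparison.

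**Figure D2:**
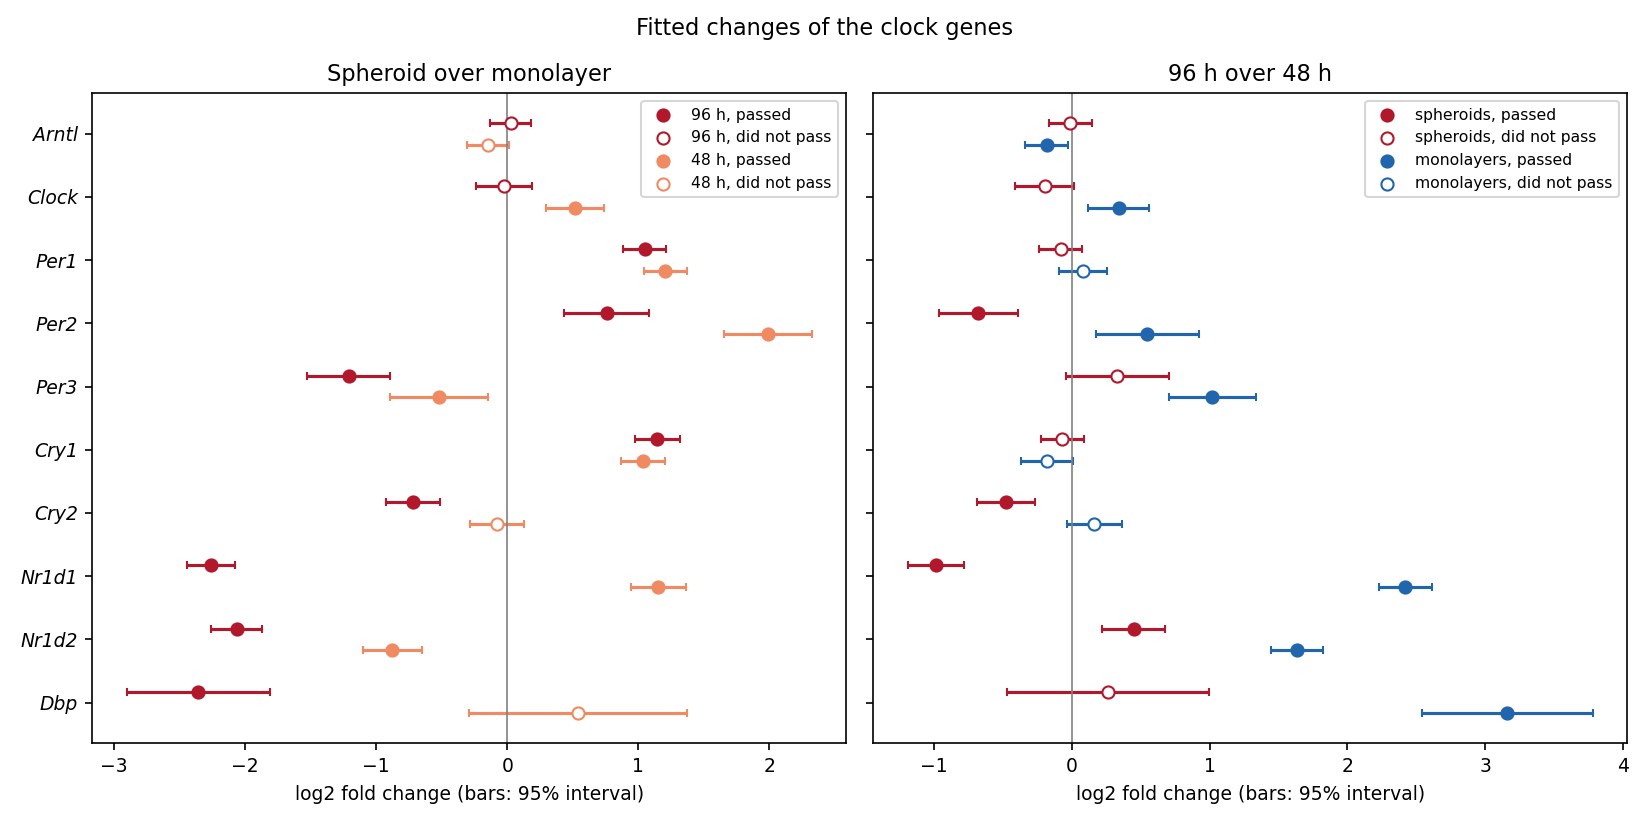
Log2 fold change (horizontal axis) of each clock gene with its 95% interval, spheroids over monolayers on the left and 96 h over 48 h on the right. Filled points passed the threshold. Nr1d1 lies at -2.26 at 96 h and 1.15 at 48 h, while Per1 and Cry1 lie above 1 at both times.

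The difference between formats itself differed between 96 h and 48 h for 7 of the 10 genes. For each of the 7 the spheroid effect, spheroids over monolayers, was lower at 96 h. This does not mean that levels fell in spheroids, since Nr1d2 rose with time in both formats. Among all genes, 53.3% passed this interaction test, 26.4% with a lower and 26.9% with a higher spheroid effect at 96 h. The change in the log2 spheroid effect was -3.41 for Nr1d1 (SE 0.134, adjusted p = 5.6e-13), -2.90 for Dbp (SE 0.483, adjusted p = 6.56e-05), -1.23 for Per2 (SE 0.225, adjusted p = 0.000165) and -1.19 for Nr1d2 (SE 0.143, adjusted p = 1.66e-06). It was -0.69 for Per3 (adjusted p = 0.0199), -0.64 for Cry2 (adjusted p = 0.000723) and -0.54 for Clock (adjusted p = 0.00472). The Per3 call was lost without spheroid replicate 2 or 3 at 48 h or spheroid replicate 2 at 96 h (adjusted p = 0.0557, 0.061 and 0.0567), and the Clock call was lost on log2 FPKM values (adjusted p = 0.0577). With single libraries left out, the Clock value ranged from -0.63 to -0.39 and the Per2 value from -1.43 to -1.03. The values for Arntl, Per1 and Cry1 were 0.17, -0.16 and 0.11 and did not pass (adjusted p = 0.183, 0.238 and 0.438), though Per1 passed with total count scaling (-0.35, adjusted p = 0.0167) and on log2 FPKM values (-0.33, adjusted p = 0.0313), and Dbp lay at -1.76 on the same values. The median over the 10 genes was -0.67, beside -0.02 over all genes. Counted over both format comparisons, 5 genes passed in the same direction at both times, namely Per1, Per2 and Cry1 higher and Per3 and Nr1d2 lower in spheroids, and 1, Nr1d1, passed in opposite directions. Among all genes tested, 39% passed in the same direction at both times and 7.58% in opposite directions.

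Compared per kilobase, in FPKM (fragments per kilobase, scaled to library size, computed back from the deposited log2 values), the order of the genes differed between groups. In spheroids Per1 came first, at 18.5 ± 1.17 FPKM at 96 h and 19.9 ± 1.16 FPKM at 48 h (SD, n = 3). Cry1 followed at 12.8 and 13.6 FPKM, and its 96 h range overlapped that of Arntl. Among monolayers at 96 h, Nr1d2 and Nr1d1 came first, at 19.8 ± 1.06 and 17.2 ± 0.665 FPKM, without overlap with each other or with Arntl at 13.6 FPKM. In monolayers at 48 h Arntl came first at 13.4 ± 1.60 FPKM, followed by Clock at 8.67 and Per1 at 7.94 FPKM, which overlapped. Dbp was last in 3 groups, at 0.777 FPKM in spheroids at 96 h, 0.643 FPKM in spheroids at 48 h and 0.423 FPKM in monolayers at 48 h, where its range overlapped that of the gene above it (Per3 in spheroids, Per2 in monolayers). In monolayers at 96 h it reached 4.25 FPKM, where it overlapped Cry2 and Per3, and Per2 was last at 1.14 FPKM.

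**Figure D3:**
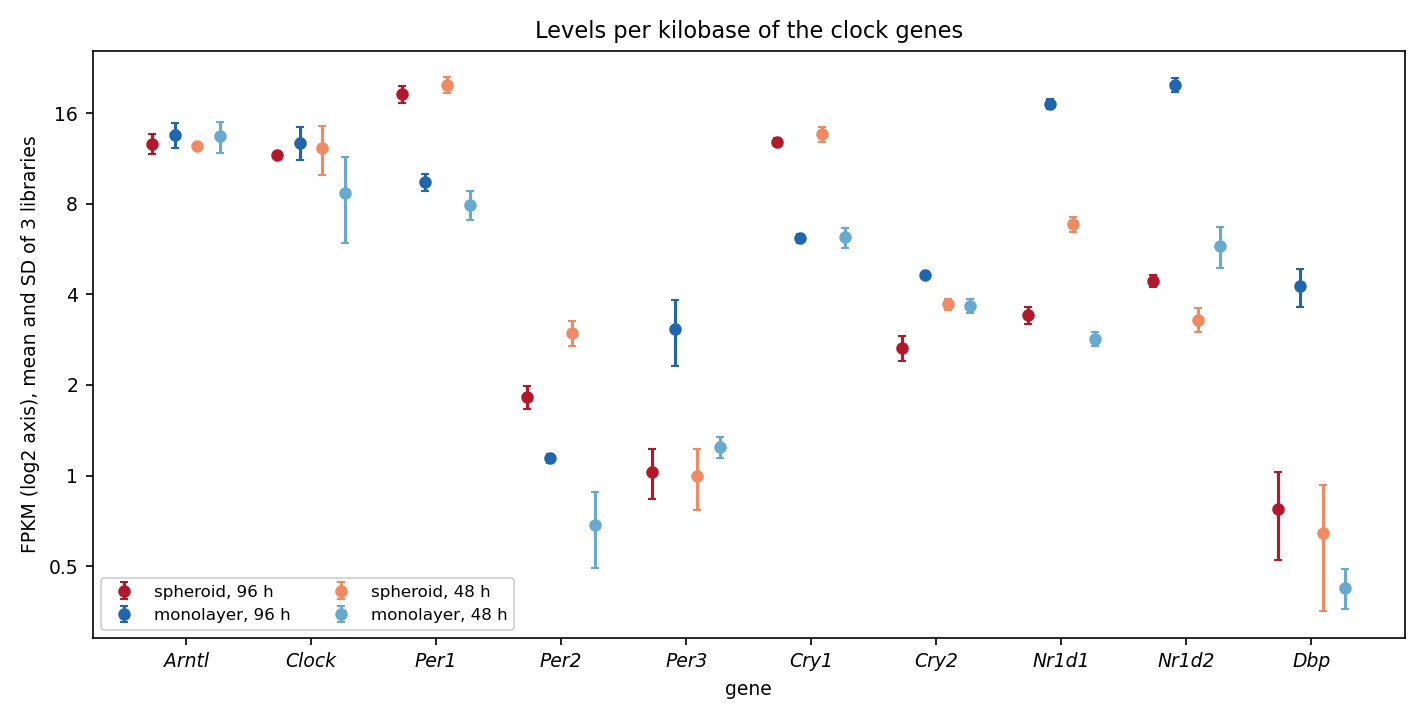
Level of each clock gene in FPKM (vertical axis, log2 scale), with mean and SD of 3 libraries in each group. Nr1d1, Nr1d2 and Dbp spread most between groups, and Arntl lies between 12.4 and 13.6 FPKM in all 4.

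For each clock gene, the tested genes with the most similar profile were those with the smallest root mean square difference of mean-centred log2 CPM over the 12 libraries. Near Per1 were Rps6ka1 and Sort1, at 0.108 and 0.110 beside an SD of 0.570 for Per1 itself. Cry1 was most like Gle1, Bscl2 and Bdh1, at 0.0715, 0.0973 and 0.100 beside 0.550. Nr1d1 was most like Fam69b, Lingo1 and Megf10, at 0.179, 0.195 and 0.209 beside 0.958, and Nr1d2 most like Zc3h6, Ap1s2 and Idua, at 0.216, 0.243 and 0.263 beside 0.954. For Per2 the first was Il6ra (0.174 beside 0.771), for Per3 Zbtb39 (0.127 beside 0.589), for Cry2 Lman1 (0.0759 beside 0.271) and for Dbp Ccdc48 (0.353 beside 1.17). Clock was most like Dlg5 (0.0892 beside 0.233). The nearest to Arntl was Arcn1, at 0.0538 beside an SD of 0.0886.

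Another 23 genes of the clock were examined by role, and all were tested. At 96 h, 7 were higher and 13 lower in spheroids, beside 37.3% and 36.5% of all genes, with a median log2 fold change of -0.30. At 48 h, 4 were higher and 9 lower, beside 31.6% and 26.4%, with a median of -0.18. With time, 4 rose and 5 fell in spheroids, beside 19.3% and 20.5%, and 10 rose and 6 fell in monolayers, beside 30.1% and 31.3%. The spheroid effect was higher at 96 h for 6 and lower for 7, beside 26.9% and 26.4%. Nampt, which encodes an enzyme of NAD synthesis, passed in no comparison.

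Dbp has 2 sister genes, Tef and Hlf, which bind the same D-box, and Nfil3 encodes a repressor at that site. Tef was at 15.3, 15.8 and 16.5 CPM in spheroids and 46.1, 43.2 and 37.8 CPM in monolayers at 96 h, and between 15.2 and 16.8 CPM in spheroids and 14.3 and 15.8 CPM in monolayers at 48 h. Like Dbp, it stood out in monolayers at 96 h, where spheroids were lower by a log2 fold change of -1.42 (SE 0.0898, adjusted p = 7.97e-11). Hlf differed from them between formats and rose with them in monolayers. It was at 9.63, 10.7 and 9.87 CPM in spheroids and 6.56, 6.13 and 4.41 CPM in monolayers at 96 h, and at 6.90, 5.56 and 6.45 CPM in spheroids and 0.392, 0.332 and 0.536 CPM in monolayers at 48 h. Hlf was thus higher in spheroids, by 0.82 at 96 h (SE 0.158, adjusted p = 0.000137) and by 3.88 at 48 h (SE 0.273, adjusted p = 6.29e-10). In monolayers it rose with time by 3.73 (SE 0.275, adjusted p = 1.98e-09), and Tef by 1.52 (SE 0.0923, adjusted p = 1.51e-10). The spheroid effect was lower at 96 h than at 48 h for Hlf (-3.06, adjusted p = 5.31e-07) and Tef (-1.52, adjusted p = 3.91e-08). Hlf held only 4, 4 and 6 counts in monolayers at 48 h, so its fold changes that use that group are uncertain in size. Nfil3 averaged 19.9 CPM in spheroids and 42.0 CPM in monolayers at 96 h (log2 fold change -1.08, adjusted p = 3.07e-10), and 38.4 CPM in spheroids and 38.0 CPM in monolayers at 48 h (0.02, adjusted p = 0.864).

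The ROR receptors oppose the REV-ERB proteins at shared elements. Rora averaged 3.68 CPM in spheroids and 15.1 CPM in monolayers at 96 h (log2 fold change -2.04, SE 0.179, adjusted p = 7.88e-09), and 4.94 CPM in spheroids and 6.55 CPM in monolayers at 48 h (-0.40, adjusted p = 0.0892). Rorb held 1 to 17 counts in a library. Of the activator paralogs, Npas2 was higher in spheroids at 96 h (1.36, adjusted p = 1.32e-06), and Arntl2 was lower in spheroids at both times (-1.16 each, adjusted p = 3.1e-06 at 96 h and 3.59e-05 at 48 h).

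Bhlhe40, Bhlhe41 and Ciart encode other repressors of the activating pair. Bhlhe40 was at 84.0, 81.6 and 85.5 CPM in spheroids and 332, 359 and 346 CPM in monolayers at 96 h, and at 111, 123 and 114 CPM in spheroids and 659, 657 and 697 CPM in monolayers at 48 h. All spheroids lay below all monolayers (log2 fold changes -2.05 at 96 h and -2.53 at 48 h, SE 0.0657 and 0.0663, adjusted p = 4.59e-15 and 5.13e-16). Ciart was also lower in spheroids (-1.43 at 96 h and -2.03 at 48 h, adjusted p = 3.86e-05 and 1.59e-06), and Bhlhe41 was higher in spheroids at 96 h (0.80, adjusted p = 2.68e-06). Of 8 kinases and ubiquitin ligase parts that act on PER and CRY proteins, 1 was higher and 6 lower in spheroids at 96 h. The shares of all genes were 37.3% and 36.5%, or 73.8% in either direction. At 48 h, 1 was higher and 4 lower, beside 31.6% and 26.4% of all genes, or 57.9%. Among the ligase parts, the row of Btrc also lists Fbxw11, so it is not cleanly separate from the row of Fbxw11. Csnk1e, a casein kinase that phosphorylates PER, averaged 60.2 CPM in spheroids and 108 CPM in monolayers at 96 h, and 71.6 CPM in spheroids and 197 CPM in monolayers at 48 h (-0.84 and -1.46, adjusted p = 3.77e-10 and 2.44e-13). Of the outputs, Usp2 was higher in spheroids at both times (1.01 and 1.48, adjusted p = 9.15e-06 and 5.17e-07), and Noct, the nocturnin gene, fell by 1.43 in monolayers with time (adjusted p = 4e-11).

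**Figure D4:**
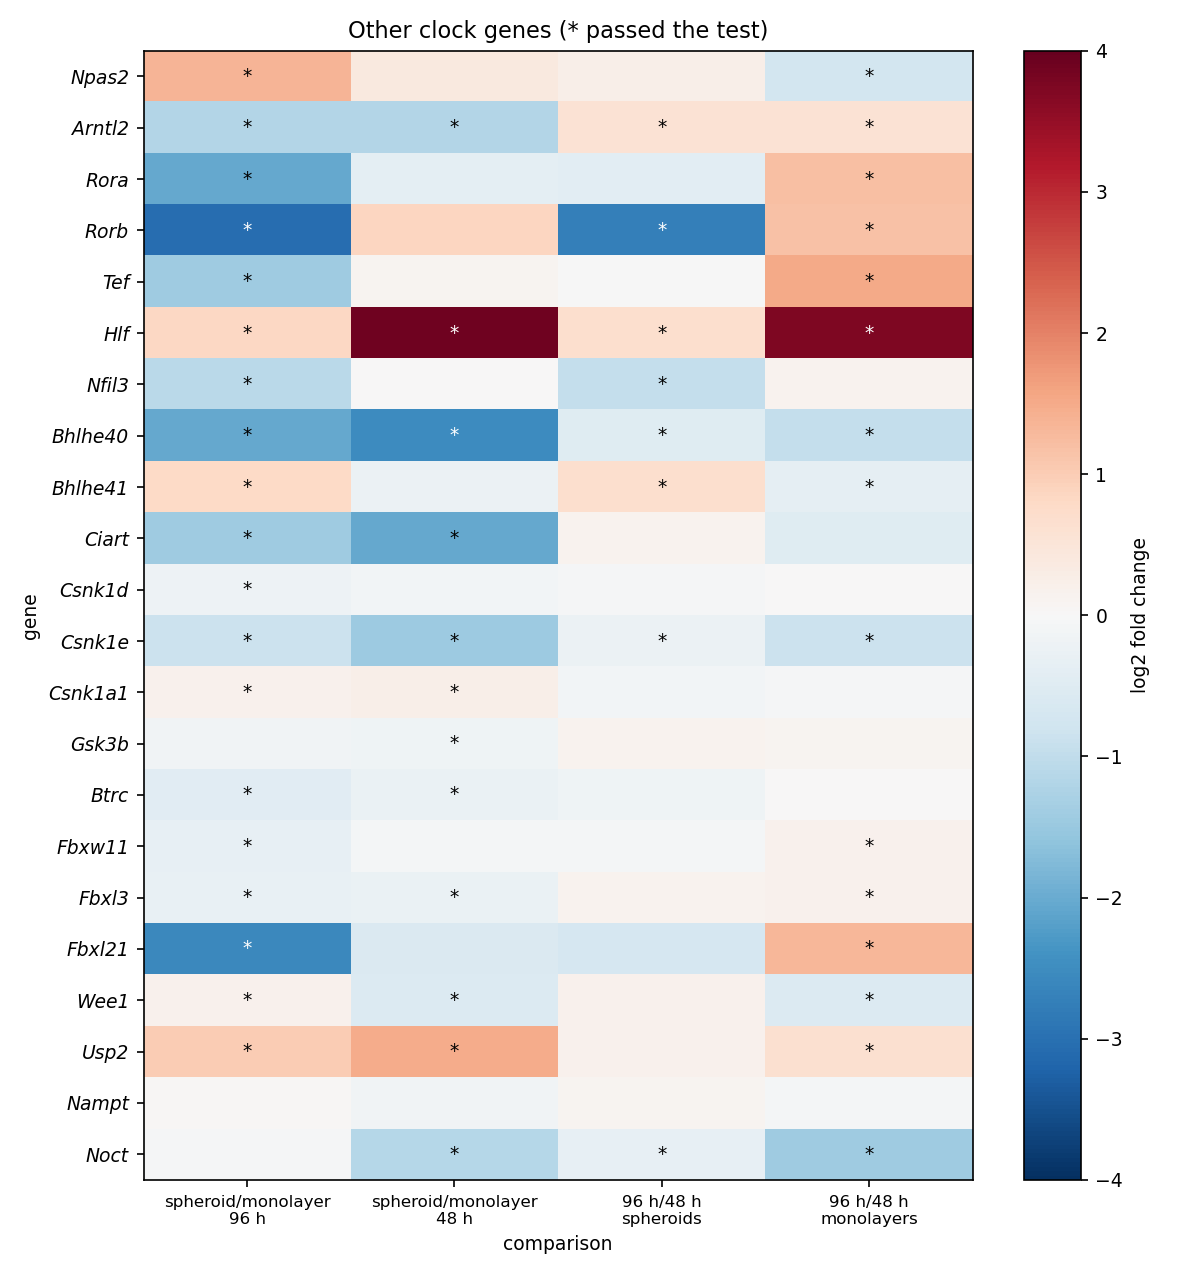
Log2 fold change (colour) of 22 of the 23 other clock genes (rows) in 4 comparisons (columns), with an asterisk where the test was passed. Bhlhe40, Arntl2, Ciart and Csnk1e are lower in spheroids at both times, and Hlf and Usp2 are higher.

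Some clock genes, Per1 among them, also respond to steroid hormones, so 6 steroid-responsive genes and the receptor genes Nr3c1 and Pgr were examined. In spheroids at 96 h, 4 of the 8 were higher and 4 lower than in monolayers, beside 37.3% and 36.5% of all genes, or 73.8% in either direction. At 48 h 4 were higher and 2 lower, beside 31.6% and 26.4%, or 57.9%. With time, none rose and 4 fell in spheroids, beside 19.3% and 20.5% of all genes, or 39.8%. In monolayers 6 rose and 1 fell, beside 30.1% and 31.3%, or 61.3%. Fkbp5, an immunophilin gene, averaged 164 CPM in spheroids and 99.3 CPM in monolayers at 96 h, and 147 CPM in spheroids and 81.4 CPM in monolayers at 48 h. Like Per1 it was higher in spheroids at both times (log2 fold changes 0.73 and 0.85, adjusted p = 7.35e-09 and 1.77e-09). Sgk1 and Dusp1 went the other way at both times. Sgk1 averaged 151 CPM in spheroids and 321 CPM in monolayers at 96 h, and 348 and 607 CPM at 48 h. Dusp1 averaged 8.57 CPM in spheroids and 50.7 CPM in monolayers at 96 h, and 22.7 and 42.7 CPM at 48 h. Klf9, which encodes a Kruppel-like repressor, was at 35.0, 34.9 and 35.3 CPM in spheroids and 111, 108 and 103 CPM in monolayers at 96 h (-1.62, SE 0.0706, adjusted p = 3.53e-13), and averaged 44.3 CPM in spheroids and 44.1 CPM in monolayers at 48 h (0.01, adjusted p = 0.945). Klf9 was thus high in the same group as Nr1d1, Nr1d2, Dbp and Tef. Pgr, the progesterone receptor gene, averaged 37.1 CPM in spheroids and 13.2 CPM in monolayers at 96 h, and 84.9 CPM in spheroids and 7.33 CPM in monolayers at 48 h (1.49 and 3.53, adjusted p = 1.34e-11 and 2.47e-16).

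**Figure D5:**
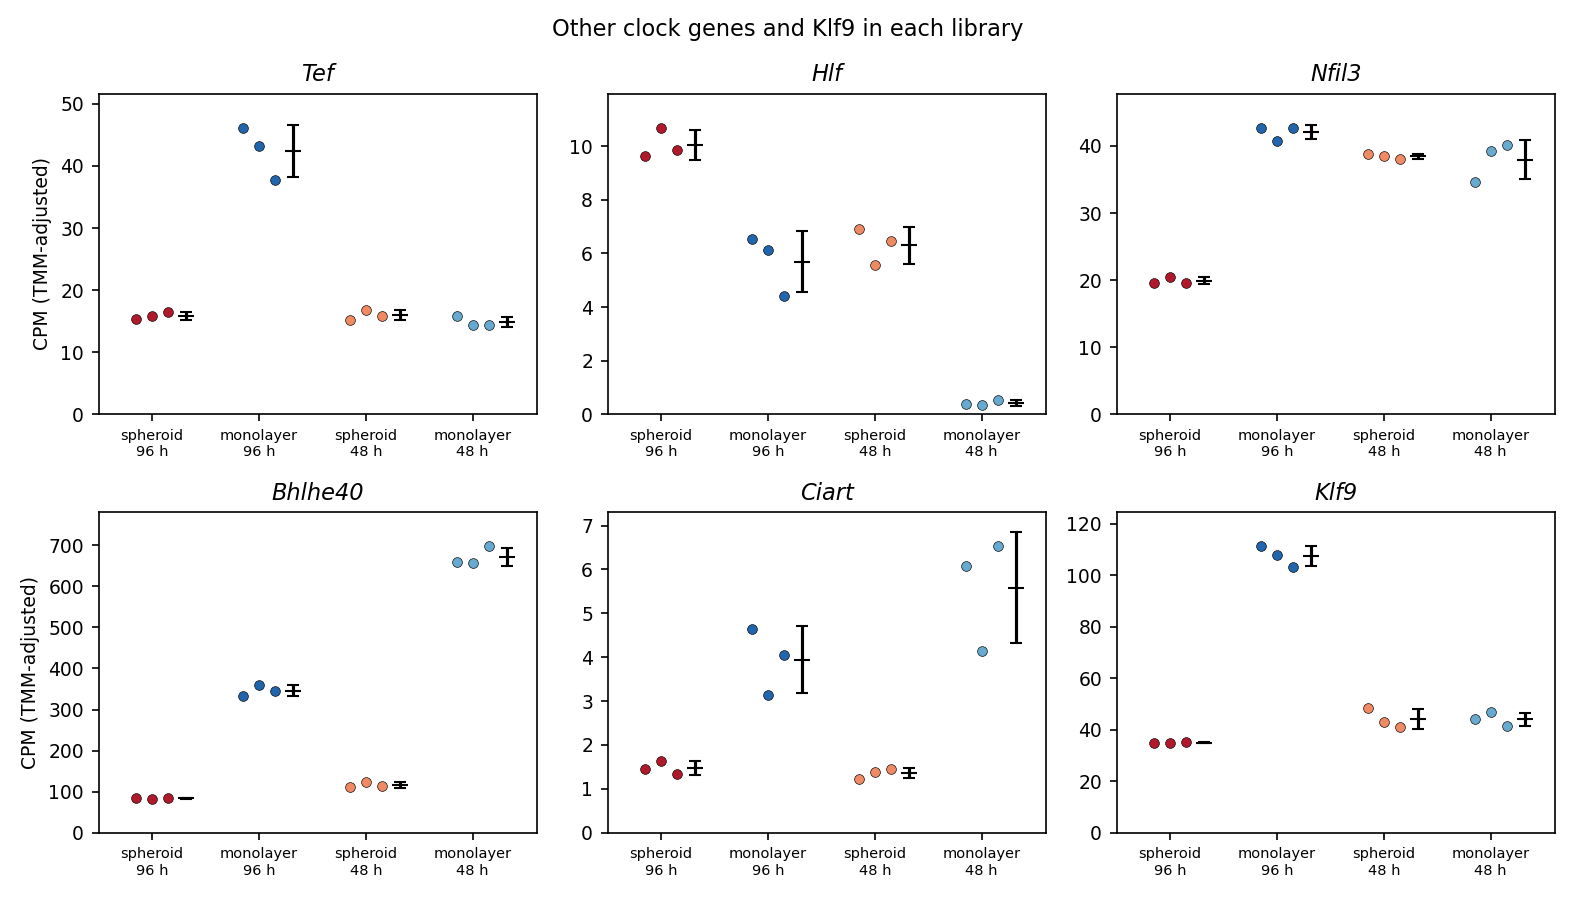
Levels in CPM (vertical axis, from 0) of Tef, Hlf, Nfil3, Bhlhe40, Ciart and Klf9 in the 12 libraries, with the mean and SD of 3 in each group. Tef and Klf9 are highest in monolayers at 96 h, and Bhlhe40 is lowest in spheroids.

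Markers of other cells and of cell division differed between the same groups. The summed fibroblast markers were highest in monolayers at 48 h, as was Arntl, and that sum was carried by Col1a1 and Col1a2, at means of 4026 and 3060 CPM there. Of the 8 markers, 3 went another way: Pdgfra averaged 137 CPM and Dcn 308 CPM in monolayers at 96 h, against 47.2 and 107 CPM in monolayers at 48 h, and Lum was highest in spheroids at 48 h, at 6.74 CPM. The 4 cycling markers (Mki67, Top2a, Ccnb1 and Aurkb) summed to 1003 to 1110 CPM in spheroids and 41.0 to 62.8 CPM in monolayers at 96 h, and to 810 to 859 CPM in spheroids and 399 to 457 CPM in monolayers at 48 h. They were thus lowest in the group where Nr1d1, Nr1d2, Per3 and Dbp were highest, and higher in spheroids at both times, as were Per1, Per2 and Cry1. Endothelial markers, all 4 present in each group, summed to 5.49 to 6.50 CPM in spheroids and 53.9 to 56.2 CPM in monolayers at 96 h, and to 21.5 to 28.1 CPM in spheroids and 31.1 to 43.8 CPM in monolayers at 48 h. Of the 4, Kdr went another way in monolayers, at 3.03 CPM at 96 h and 5.98 CPM at 48 h. Immune markers summed to 5.35 to 8.14 CPM in spheroids and 27.0 to 38.5 CPM in monolayers at 96 h, and to 8.91 to 13.0 CPM in spheroids and 7.15 to 8.95 CPM in monolayers at 48 h. Cd3e, which marks T cells, was at 0 in monolayers at 96 h. Adipocyte markers stayed at or below 3.03 CPM in every library, with Plin1 and Lep at 0 in all monolayers. The part of these markers' cells in the clock gene differences was not tested, and in bulk RNA fewer cells of a type and less RNA per cell cannot be told apart.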

How the data were processed

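The 12 libraries were assigned to 4 groups of 3 from their titles. Per the submitters' processing notes, the authors used mm9, RSEM 1.2.30, Bowtie 1.0.1 and bcl2fastq 2.15.0. The sources used here give neither program options nor strand setting. As deposited, the expected counts are rounded to whole numbers, which coarsens low values, and a second deposited table holds FPKM on a log2 scale after adding 1. Counts were tested in R 4.3.3 with edgeR 4.0.16: genes kept by filterByExpr over the 4 groups (minimum count 10, minimum total 15), TMM scaling with factors from 0.923 to 1.07, and a quasi-likelihood model of all 12 libraries with group as the only term. The common dispersion was 0.00501. Tests were 2-sided, adjusted by Benjamini-Hochberg over all genes tested in each comparison, with a threshold of 0.05. An SE is the size of the log2 fold change divided by the square root of F, and can be too small where counts are low. Rose, fell, higher and lower of a test mean past that threshold. The scripts were tested on simulated counts.

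All 10 clock genes are named whatever their values, with genes of a list of 23 other clock genes and a list of 8 steroid-related genes that passed in at least 1 comparison. A few listed or similar genes are not reported here. These genes and lists were chosen with earlier results of these data known. Similar profiles are the 3 nearest genes by root mean square difference, with rows of several symbols and names beginning Gm or ending Rik left out. Overlapping genes were read from GENCODE M21 on GRCm38. Alternatives were RLE, upper-quartile and total count scaling, no filter, a stricter filter (50 counts in 3 libraries), DESeq2 1.42.0, limma 3.58.1 on the log2 FPKM values (mean of at least 0.5), a replicate block, only the groups compared, and each library left out. In a further setting the rows of a symbol were summed, which repeated the main fit, since each clock gene had a single row. Counting error sets a limit for Dbp, and for Hlf in monolayers at 48 h. Reads carried no stated molecular identifiers.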

Additional observations from a re-analysis of the deposited data

Results flagged for a closer look

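For 7 clock genes, the difference between spheroids and monolayers at 96 h differed from that at 48 h by edgeR's test of the difference itself, with Benjamini-Hochberg adjustment. The log2 effect at 96 h minus that at 48 h was -3.41 for Nr1d1, -2.90 for Dbp, -1.23 for Per2, -1.19 for Nr1d2, -0.69 for Per3, -0.64 for Cry2 and -0.54 for Clock. The effects themselves were -2.26 at 96 h and 1.15 at 48 h for Nr1d1, -2.36 and 0.54 for Dbp (0.0867 at 48 h without spheroid replicate 1), 0.76 and 1.99 for Per2, and -2.06 and -0.88 for Nr1d2. They were -1.21 and -0.52 for Per3, -0.72 and -0.08 for Cry2, and -0.02 and 0.52 for Clock. With single libraries left out, the 48 h effect ranged from 0.37 to 0.61 for Clock and from 1.78 to 2.19 for Per2.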

How the results depend on the processing

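Over 22 alternative settings, the 50 fitted values of the 10 genes gave 1084 alternative values, of which 1036 kept direction and side of the threshold, 20 lost a call, 10 gained one and 18 changed sign. The setting that summed the rows of a symbol repeated the main fit, since each symbol had a single row. Its values among the 1036 were bound to agree. Of 33 calls, 28 held in all settings run. The number of clock genes called ranged from 7 to 8 at 96 h, 6 to 8 at 48 h, 4 to 5 in spheroids with time, 5 to 8 in monolayers with time and 6 to 8 for the interaction. Only Arntl changed sign from a called value, to 0.0201 in monolayers with time on log2 FPKM. Among values that had not passed, Arntl at 96 h turned to -0.0674 with upper-quartile scaling, -0.0512 with total count scaling, -0.0423 with the stricter filter and -0.0901 on log2 FPKM, and ranged from -0.0101 to 0.0825 with libraries left out. Arntl in spheroids with time turned to 0.00239 without a filter and 0.0259 on log2 FPKM, and ranged from -0.0340 to 0.0268 with libraries left out. Clock at 96 h turned to 0.00152 without a filter and ranged from -0.0433 to 0.0151 with libraries left out. Cry2 at 48 h turned to 0.0310 with total count scaling and 0.0148 on log2 FPKM. The interaction turned to -0.0145 for Arntl with total count scaling, and for Cry1 to -0.0770 with it and -0.0714 on log2 FPKM. Total count scaling moved the median of all genes to 0.16 at 48 h, 0.18 in monolayers with time and -0.20 for the interaction. Relative to the median of all genes, Arntl in monolayers with time lay at -0.195 with total count scaling and at -0.195 under TMM. Of all genes called at 48 h, 54.5% were higher with TMM, 65.1% with total counts and 65.5% on log2 FPKM; in monolayers with time these were 49.0%, 66.1% and 64.4%, and for the interaction 50.4%, 34.3% and 37.2%. The cause was not tested. A replicate block kept 7, 8, 4 and 7 calls at 48 h, at 96 h, in spheroids with time and for the interaction, and 6 of 7 in monolayers, where Arntl was lost (adjusted p = 0.0538). Same-numbered libraries did not deviate together (correlations from -0.11 to 0.0881). With 3 libraries in a group, this cannot show whether they share an animal or a preparation. Dbp, with 6 to 93 counts, was not tested under the stricter filter, nor at 48 h with only the groups compared.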
